A study of Bos indicus x Bos taurus with 45 samples.

Results

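The microRNAs (miRNAs, short RNAs that repress target messenger RNAs) whose genes lie inside the HOX gene clusters were followed across 4 tissues of bovine fetuses. Members were all rows of the deposited count tables named miR-10a, miR-10b, miR-196a or miR-196b, from either arm of the hairpin precursor. There were 16 such rows among 1898, with 6 different names: 6 of 436 in kidney, 3 of 563 in liver, 5 of 439 in skeletal muscle and 2 of 460 in tongue. The names bta-miR-10a and bta-miR-10b (bta for Bos taurus, left out below) stood in every table, miR-196b in kidney, liver and muscle, miR-196a in kidney and muscle, miR-10b-3p in kidney and muscle, and miR-10a-3p in kidney alone. A suffix of 3p marks the 3' arm of the hairpin, which for these precursors is the minor product. Fetuses were Bos indicus x Bos taurus crosses at about day 105 of gestation. Controls were healthy and were conceived by artificial insemination, LOS fetuses had large offspring syndrome, an overgrowth condition, after assisted reproduction (ART), and the ART group (liver only) was healthy after the same kind of conception. There were 4 control and 4 LOS libraries in kidney, 5 control, 4 ART and 4 LOS in liver, 4 control and 4 LOS in skeletal muscle, and 9 control and 7 LOS in tongue, where controls 1 to 5 and LOS 1 to 4 were female and the others male. LOS and assisted reproduction cannot be told apart outside liver. The labels name neither the muscle sampled nor the parents of the fetuses.

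HOX genes are transcription factor genes that stand in 4 clusters and are switched on in the order of their position, so that the genes at one end mark anterior and those at the other end posterior levels of the embryo. In mammals the gene of miR-10a lies between HOXB4 and HOXB5 and that of miR-10b between HOXD4 and HOXD8, at the level of the anterior to middle cluster. The genes of miR-196 lie further toward the posterior end: miR-196b between HOXA9 and HOXA10, and the copies that both give miR-196a between HOXB9 and HOXB13 and between HOXC9 and HOXC10. Members of both families are known to repress HOX messenger RNAs, such as HOXB8 for miR-196 and HOXD10 for miR-10b. In the RefSeq table of the Brahman assembly UOA_Brahman_1, which lists 39 HOX genes, no other HOX gene stood between the members of any of these 5 neighbouring pairs. The tables gave more than 1 precursor for miR-196a. Within each family the mature RNAs are nearly identical, so reads of miR-10a and miR-10b, or of miR-196a and miR-196b, could be counted for the wrong relative, and each level below is uncertain to that extent.

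The tables listed 374 miRNAs in all 4 tissues. Reads of listed miRNAs per library ranged from 3379816 in liver to 13822348 in tongue, and the groups of a tissue overlapped in depth. No listed count was 0, and the lowest mean level listed was 3.03 to 4.23 CPM (the count divided by all listed reads of the library, scaled to 1000000 reads) depending on the tissue, so a member that is not listed had no level analysed here. Marker miRNAs followed the tissue labels: miR-122 of hepatocytes stood at 14415 CPM or more in liver and at 29.6 CPM or less in kidney and muscle, and miR-133a of skeletal muscle at 12202 CPM or more in muscle and tongue and at 169 CPM or less in kidney and liver. In whole tissue, fewer cells of a type and less RNA per cell cannot be told apart. Each tissue has its own table, and a trimming tool was named for tongue alone, so that tissue and table processing cannot be told apart either.

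The members took up very different shares of the listed reads by tissue. They made up 41.0% ± 0.723 (SD, n = 8) of listed reads in kidney, 9.74% ± 1.3 (n = 8) in skeletal muscle, 2.597% ± 0.553 (n = 16) in tongue and 0.422% ± 0.0636 (n = 13) in liver. Of all miRNAs listed in kidney, miR-10b was the most abundant and miR-10a the next. In muscle miR-10b ranked 3 and miR-10a 35, and in tongue they ranked 9 and 110. Liver was the tissue where the order turned, with miR-10a at rank 43 and miR-10b at rank 98.

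**Figure D1:**
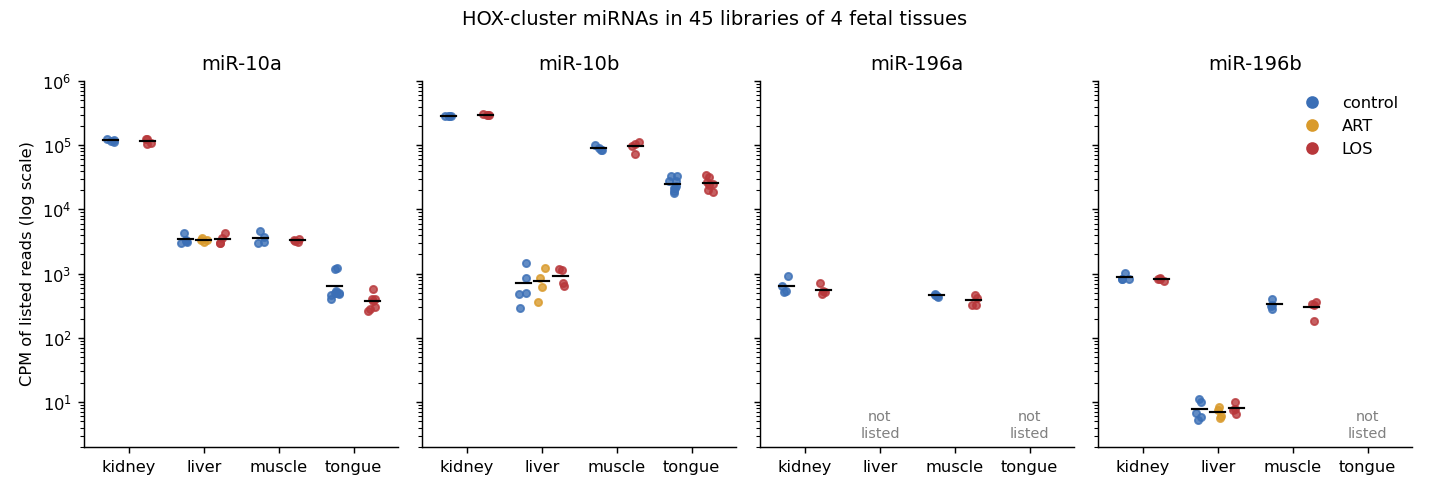
Levels of miR-10a, miR-10b, miR-196a and miR-196b (without the minor arms) in every library, in CPM of listed reads on a log axis, by tissue, with 1 point per fetus coloured by group and a bar at the group mean. miR-10a and miR-10b were highest in kidney, the lowest miR-10a stood in tongue and the lowest miR-10b in liver, and miR-196b in liver stood at 5.17 to 11.2 CPM.

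miR-10a was highest in kidney, intermediate in skeletal muscle and liver, and lowest in tongue. In kidney the controls stood at 116660, 112712, 125700 and 118953 CPM, and the LOS fetuses at 125970, 124533, 106816 and 103141 CPM. In muscle the controls stood at 3044, 4587, 3089 and 3735 CPM. In liver the controls stood at 3257, 3030, 3058, 3376 and 4288 CPM, in the same range as muscle. In tongue the controls ranged from 403 to 1217 CPM with a median of 497 CPM. All 6 tissue pairs differed in controls 1 to 4 of each tissue by edgeR's quasi-likelihood test, where most of the 374 miRNAs differed too. The share called in the same fit was 86.4% for kidney against liver, 76.7% for kidney against muscle, 79.7% for kidney against tongue, 85% for liver against tongue, 65% for muscle against tongue and 85.6% for liver against muscle. Kidney exceeded tongue by 8.39 ± 0.17 (log2 difference ± SE; 334-fold; edgeR adjusted p = 3.01e-16), the largest of the 374 differences of that pair. Tongue controls 5 and 9, the highest at 1217 and 1201 CPM, were not in that fit. Under alternative settings this difference ranged from 7.94 to 8.53. Kidney exceeded liver by 6.02 ± 0.15 (65.1-fold; edgeR adjusted p = 1.05e-14) and muscle by 5.12 ± 0.15 (34.9-fold; edgeR adjusted p = 9.71e-15). Muscle exceeded tongue by 3.26 ± 0.13 (9.58-fold; edgeR adjusted p = 1.02e-11), and liver exceeded tongue by 2.36 ± 0.13 (5.14-fold; edgeR adjusted p = 2.38e-11).

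The order of liver and muscle for miR-10a rested on the scaling. With the TMM factors that edgeR computes, liver was lower than muscle by a log2 difference of -0.90 ± 0.12 (edgeR adjusted p = 3.34e-06), whereas without factors the difference was -0.15 ± 0.12 (edgeR adjusted p = 0.219) and the CPM ranges overlapped. The factors lay between 0.751 and 1.46 in the tissue fit, and leaving them out moved the median difference of all miRNAs from -0.24 to -1.06 for kidney minus liver, from 0.09 to 0.84 for liver minus muscle, from -0.09 to -0.53 for kidney minus tongue, from 0.15 to 0.54 for liver minus tongue and from -0.02 to -0.38 for muscle minus tongue. The numbers of miRNAs called higher and lower changed from 144 and 179 to 90 and 243 for kidney minus liver and from 133 and 165 to 85 and 220 for kidney minus tongue. They changed from 170 and 150 to 228 and 103 for liver minus muscle, from 172 and 146 to 215 and 114 for liver minus tongue and from 115 and 128 to 70 and 212 for muscle minus tongue. The other 5 differences of miR-10a and all 6 of miR-10b kept their direction and their call without factors.

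miR-10b followed another order, with kidney above muscle, muscle above tongue and liver lowest. In kidney the controls stood at 284917, 288851, 282425 and 281428 CPM. In muscle the controls stood at 100688, 89999, 84705 and 84566 CPM. In tongue the controls ranged from 18132 to 33275 CPM with a median of 22817 CPM. In liver the controls stood at 865, 292, 478, 1459 and 499.9 CPM, a 5-fold span between fetuses of 1 group. The ranges of the 4 tissues did not overlap. All 6 tissue pairs differed in controls 1 to 4, against the shares of called miRNAs given above. Kidney exceeded liver by 9.34 ± 0.48 (647-fold; edgeR adjusted p = 1.37e-11), the largest of the 374 differences of that pair, and the liver minus muscle difference was -7.59 ± 0.45 (edgeR adjusted p = 7.96e-11). The liver minus tongue difference was -5.38 ± 0.41 (edgeR adjusted p = 1.71e-09). Kidney exceeded tongue by 3.95 ± 0.38 (15.5-fold; edgeR adjusted p = 6.13e-08). The step from kidney to muscle was the smallest of the 6, at 1.74 ± 0.35 (3.35-fold; edgeR adjusted p = 0.000249), and muscle exceeded tongue by 2.21 ± 0.35 (4.62-fold; edgeR adjusted p = 4.39e-05).

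The balance of miR-10a to miR-10b within a library does not depend on scaling between libraries. In liver the miR-10a count was 2.31 to 10.4 times the miR-10b count, with a median of 4.09. The ratio ranged from 0.336 to 0.445 in kidney libraries, from 0.0285 to 0.0510 in muscle libraries and from 0.00945 to 0.0567 in tongue libraries. Only the liver libraries held more miR-10a than miR-10b, and the ranges of liver, kidney and muscle did not overlap. In controls 1 to 4 kidney had a mean log2 ratio of -1.26, liver one of 2.29, muscle one of -4.66 and tongue one of -5.65. Each of the 6 tissue pairs had an exact two-sided permutation p of 0.02857, the smallest that 4 against 4 libraries allow, and the same value after adjustment over the 6 pairs. That test takes the libraries of different tissues as unrelated. With equal fetus numbers as pairs, all 6 had an exact permutation p of 0.125, the smallest that 4 pairs allow, so that no call was possible. The smallest step was muscle minus tongue, at 0.99. With all 22 control libraries that step was 0.73 (adjusted exact permutation p = 0.0909), where tongue controls 5 and 9 had ratios of 0.0533 and 0.0567. In LOS fetuses 1 to 4 the step was 1.22, and all 6 pairs again reached the smallest exact permutation p of 0.02857.

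**Figure D2:**
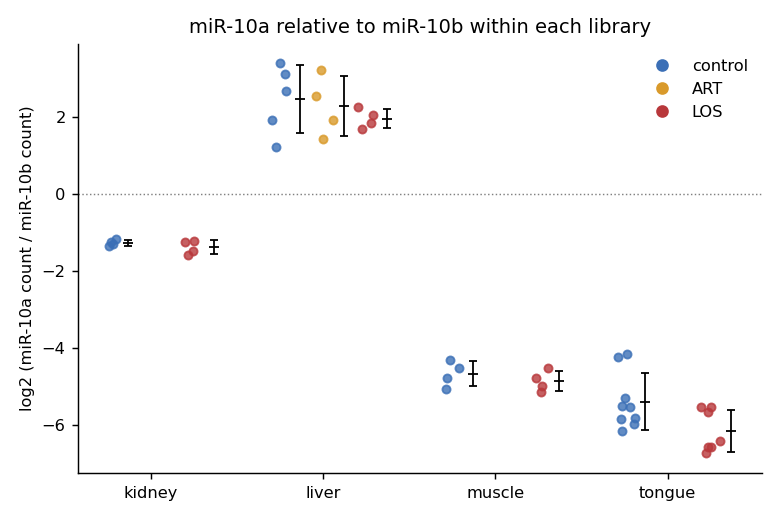
Log2 of the miR-10a count over the miR-10b count in every library, by tissue and group, with the group mean and SD as black marks and a dotted line at equal counts. Liver libraries lie above equality at ratios of 2.31 to 10.4, and kidney, muscle and tongue libraries lie below it.

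The posterior pair, miR-196a and miR-196b, had its highest levels in kidney. The mean of miR-196b was 850 ± 73.3 CPM (SD) over the 8 kidney libraries, 318 ± 65.8 CPM over the 8 muscle libraries and 7.55 ± 1.90 CPM over the 13 liver libraries. The liver values rest on 20 to 50 reads per library. In the fits of 2 tissues at a time, over controls 1 to 4, miR-196b in kidney exceeded liver by 7.91 ± 0.18 (log2; 240-fold; edgeR adjusted p = 3.62e-11; 87.3% of 417 miRNAs called) and muscle by 1.36 ± 0.10 (2.56-fold; edgeR adjusted p = 4.69e-07; 74.4% of 398 called). Its liver minus muscle difference was -6.33 ± 0.21 (edgeR adjusted p = 6.94e-10; 84.6% of 415 called). The mean of miR-196a was 609 ± 147 CPM over the 8 kidney libraries and 422 ± 63.0 CPM over the 8 muscle libraries. Kidney exceeded muscle by 0.46 ± 0.14 (1.37-fold; edgeR adjusted p = 0.0110), and without fetus 4 of both tissues the adjusted p was 0.0535. The balance within the pair differed between these tissues: the miR-196a count was 0.588 to 0.896 times the miR-196b count in kidney and 0.999 to 1.75 times in muscle, with no overlap. The order turned in every muscle library but LOS 3, where the counts were nearly equal at 0.999.

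The minor arms were far below their major arms. In kidney miR-10a-3p ranged from 76.2 to 93.5 CPM, and miR-10a exceeded it 1143 to 1481 times. miR-10b-3p ranged from 40.5 to 52.0 CPM in kidney and from 10.3 to 15.3 CPM in muscle, and miR-10b exceeded it 5681 to 7237 times in kidney and 6799 to 9962 times in muscle. In kidney minus muscle miR-10b-3p differed by 1.85 ± 0.11 (edgeR adjusted p = 8.91e-08) in the fit of these 2 tissues alone. The major arm differed by 1.74 ± 0.35 in the fit of all 4 tissues, so the SEs of the arms come from unlike fits. The arms disagreed on the balance between the genes: in kidney the ratio of miR-10a-3p to miR-10b-3p was 1.71 to 2.12, above 1 in all 8 libraries, whereas miR-10a to miR-10b was 0.336 to 0.445. miR-615-3p, from a gene in the HOXC cluster, was listed in the same 2 tissues as miR-196a, at 81.8 to 126 CPM in kidney and 29.7 to 46.8 CPM in muscle, a log2 difference of 1.54 ± 0.14 in controls (edgeR adjusted p = 2.36e-06).

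The tissue pattern was also measured in LOS fetuses 1 to 4, which are other animals. For both miR-10a and miR-10b all 6 tissue pairs were called with the same direction as in controls. The shares of miRNAs called there were 82.1% for kidney against liver, 77.3% for kidney against muscle, 74.9% for kidney against tongue, 83.2% for liver against muscle, 83.7% for liver against tongue and 60.7% for muscle against tongue. miR-10a differed by 6.01 ± 0.18 for kidney minus liver, 5.26 ± 0.17 for kidney minus muscle and 8.89 ± 0.20 for kidney minus tongue. The liver minus muscle difference of miR-10a was -0.75 ± 0.14 (edgeR adjusted p = 0.000132) and turned to 0.10 ± 0.14 (edgeR adjusted p = 0.506) without scaling factors. Leaving out the factors changed the numbers called higher and lower in LOS from 146 and 161 to 79 and 245 for kidney minus liver, from 138 and 142 to 83 and 213 for kidney minus tongue and from 157 and 154 to 228 and 90 for liver minus muscle. They changed from 167 and 146 to 200 and 108 for liver minus tongue and from 125 and 102 to 64 and 201 for muscle minus tongue. miR-10b differed by 9.29 ± 0.30 for kidney minus liver, 1.76 ± 0.22 for kidney minus muscle and 4.18 ± 0.24 for kidney minus tongue. miR-196b in kidney exceeded liver by 7.66 ± 0.15 (83.7% of miRNAs called) and muscle by 1.48 ± 0.18 (73.4% called), and its liver minus muscle difference was -6.08 ± 0.27 (80.7% called). miR-196a in kidney exceeded muscle by 0.59 ± 0.15 (edgeR adjusted p = 0.00588).

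**Figure D3:**
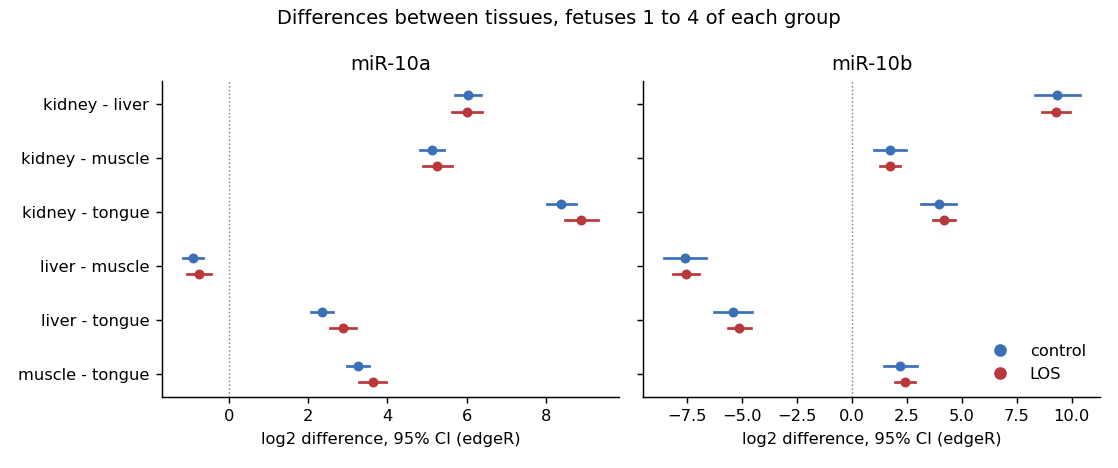
Log2 differences between pairs of tissues for miR-10a and miR-10b with 95% confidence intervals from edgeR, in control fetuses 1 to 4 and in LOS fetuses 1 to 4. Both sets of fetuses show kidney minus liver near 6.02 for miR-10a and 9.34 for miR-10b, and the 1 pair with miR-10a below 0 is liver minus muscle.

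LOS and control fetuses were then compared within each tissue, to ask whether the overgrowth condition went with other levels of these miRNAs. No member passed an adjusted p of 0.05 in edgeR in any of the 6 group comparisons, and none did in DESeq2. These fits called few miRNAs of any kind: 0% in kidney, 1.24% in liver LOS minus control, 0% in liver ART minus control, 2.66% in liver LOS minus ART, 0% in muscle and 0% in tongue. At an unadjusted p under 0.05 edgeR had 33 miRNAs in kidney, 46 in liver ART minus control, 58 in muscle and 25 in tongue, and DESeq2 called 3, 6, 17 and 0 in the same comparisons. The muscle count of DESeq2 was 10 at its default filtering level, which was replaced by the 0.05 level after its counts had been seen. Only miR-10a in tongue was below an unadjusted p of 0.05 among the members.

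**Figure D4:**
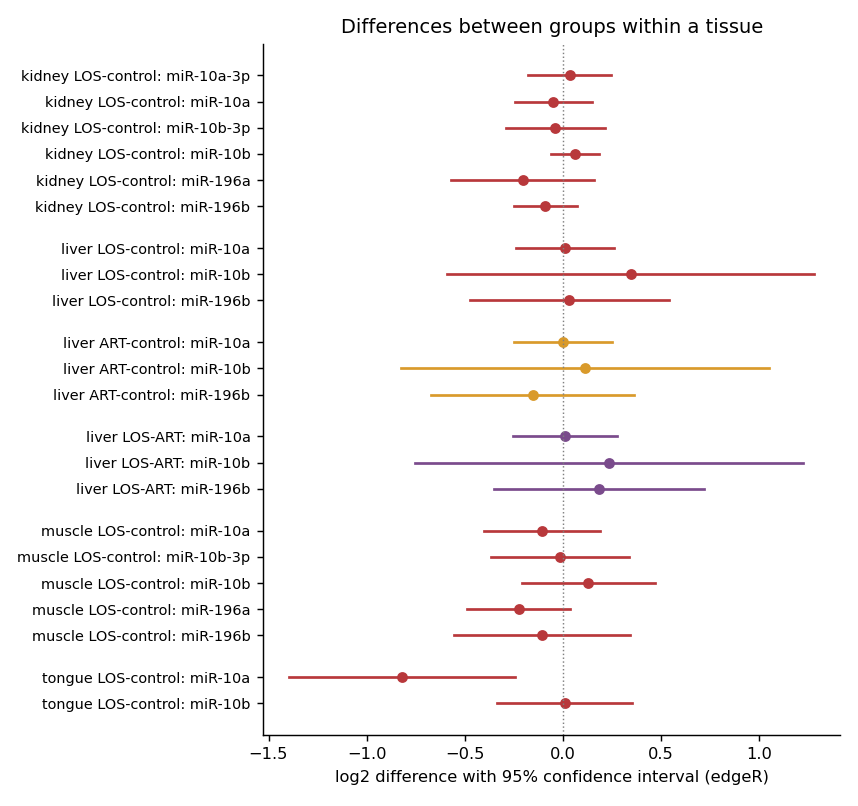
Log2 difference between groups for each listed member of each tissue, with 95% confidence intervals from edgeR and a dotted line at 0. The interval of miR-10a in tongue, -1.39 to -0.24, lies below 0 before adjustment for multiple tests, and all the other intervals include 0.

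In kidney miR-10b was the 1 member whose groups did not overlap. miR-10b in LOS stood at 293432, 293508, 300243 and 307013 CPM, each above all 4 controls. Groups without overlap made up 4.59% of the 436 kidney miRNAs, and the fitted log2 difference of miR-10b was 0.06 ± 0.06 (95% interval -0.06 to 0.19; edgeR adjusted p = 0.862). The 3 listed endothelial miRNAs summed to 11390 to 12000 CPM in kidney controls and 11570 to 13730 CPM in LOS, and the 9 listed smooth muscle and fibroblast miRNAs to 49750 to 68690 and 47840 to 53090 CPM. Their part in the miR-10b difference was not tested. The SD of miR-10b within groups was 0.025 on the log2 scale, the lowest of the 187 kidney miRNAs with at least 100 CPM, whose median SD was 0.165. That SD is of unscaled CPM, whereas the fit used TMM factors of 0.965 to 1.07, so the SE of the fit does not measure the same spread. miR-10b took up 29.1% of listed reads in kidney, and the part of that large share in its low spread was not tested. miR-10a differed by -0.05 ± 0.09 (interval -0.25 to 0.15; edgeR adjusted p = 0.957), with 2 LOS fetuses below and 1 above all controls. miR-196b stood at 1022, 833, 825 and 824 CPM in controls and at 828, 823, 869 and 779 CPM in LOS, a log2 difference of -0.09 ± 0.07. miR-196a stood at 916, 510, 546 and 640 CPM in controls and at 487, 538, 721 and 513 CPM in LOS, a log2 difference of -0.20 ± 0.16 (edgeR adjusted p = 0.859 for both). Control 1 was the highest library for both miR-196 members. The minor arms differed by 0.04 ± 0.09 for miR-10a-3p and -0.04 ± 0.11 for miR-10b-3p.

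In liver miR-10a was at a like level in the 3 groups, and miR-10b varied widely between fetuses. The groups overlapped for all 3 members, while 4.44% of liver miRNAs had no overlap in LOS against control, 3.02% in ART against control and 9.41% in LOS against ART. miR-10a stood at 3332, 3622, 3166 and 3363 CPM in ART and at 3634, 2960, 3019 and 4255 CPM in LOS. Its log2 difference was 0.01 ± 0.12 for LOS minus control (interval -0.24 to 0.26; edgeR adjusted p = 0.971), 0.00 ± 0.12 for ART minus control and 0.01 ± 0.12 for LOS minus ART. miR-10b stood at 1240, 629, 841 and 362 CPM in ART and at 1140.5, 724, 636 and 1196 CPM in LOS. The lowest and the highest of the 13 liver values were both controls, control 2 and control 4. Its SD within groups was 0.74 on the log2 scale, rank 2 of 255 liver miRNAs with at least 100 CPM, whose median was 0.116. LOS minus control was 0.35 ± 0.43 (interval -0.59 to 1.28; edgeR adjusted p = 0.769), ART minus control 0.11 ± 0.43 and LOS minus ART 0.23 ± 0.46, so differences of more than 2-fold lie inside the first interval. Marker sums also varied between these libraries. The 9 listed smooth muscle and fibroblast miRNAs summed to 59120 to 77460 CPM in controls, 67360 to 76430 CPM in ART and 76060 to 89660 CPM in LOS, and the 5 listed hepatocyte miRNAs to 80170 to 93090, 89160 to 99820 and 75340 to 85010 CPM. Control 4, with the highest miR-10b, ranked 3 of 13 for the smooth muscle and fibroblast sum, ART 1, with the next highest miR-10b, ranked 9, and control 2, with the lowest, ranked 12. For the hepatocyte sum the same libraries ranked 8, 7 and 6. Over all 13 libraries, with group means taken out, these sums correlated with miR-10b at r = 0.555 (smooth muscle and fibroblast) and -0.684 (hepatocyte). The sums of the other marker lists correlated with it too, so these lists do not stand apart. The values were -0.709 (white blood cells), -0.625 (kidney and liver epithelium), -0.532 (endothelium), -0.495 (red cell precursors), 0.471 (neuronal) and 0.424 (skeletal muscle). Their part in the miR-10b values was not tested. miR-196b stood between 5.17 and 11.2 CPM in controls, 5.59 and 8.40 CPM in ART and 6.43 and 10.05 CPM in LOS, with a LOS minus control difference of 0.03 ± 0.23 (edgeR adjusted p = 0.969).

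In skeletal muscle the groups overlapped for all 5 members, while 7.06% of muscle miRNAs had no overlap. miR-196a stood at 463, 427, 456 and 483 CPM in controls and at 418, 473, 330 and 322 CPM in LOS, with 3 of 4 LOS fetuses below all controls. The log2 difference was -0.22 ± 0.12 (interval -0.49 to 0.04; edgeR adjusted p = 0.405). The 6 listed skeletal muscle marker miRNAs had a lower median sum in LOS, at 17980 against 19510 CPM, with ranges of 16990 to 20760 and 18590 to 20070 CPM, and their part in the miR-196a values was not tested. miR-196b stood at 316, 286, 319 and 410 CPM in controls and at 336, 365, 330 and 183 CPM in LOS, where LOS 4 was the lowest of the 8. Its log2 difference was -0.11 ± 0.20. miR-10b in LOS spread from 71852 to 113370 CPM around the 4 controls, a log2 difference of 0.13 ± 0.15 (edgeR adjusted p = 0.696). miR-10a in LOS stood at 3136 to 3514 CPM within the range of the controls, a log2 difference of -0.11 ± 0.13, and miR-10b-3p differed by -0.01 ± 0.16.

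In tongue miR-10a was lower in most LOS fetuses, and the size of the difference rested on 2 controls. Controls 1 to 9 stood at 497, 491, 403, 531, 1217, 503, 478, 471 and 1201 CPM. LOS 1 to 7 stood at 402, 264, 372, 404, 576, 286 and 298 CPM. Of the 7 LOS fetuses, 5 were below all 9 controls, LOS 1 by a narrow margin, while LOS 5 exceeded 7 of the controls and the groups overlapped. None of the 460 tongue miRNAs had groups without overlap (0%). The fitted log2 difference was -0.82 ± 0.27 (interval -1.39 to -0.24), rank 3 of 460 by p. The adjusted p was 0.843 in edgeR and 0.279 in DESeq2. Without control 5 the difference was -0.60, without control 9 it was -0.63, and without both, a choice made after the values were seen, it was -0.39 ± 0.16 (edgeR adjusted p = 0.974). In miR-10b the groups lay together, at 18132 to 33275 CPM in controls and 18497 to 34899 CPM in LOS (log2 difference 0.01 ± 0.16; edgeR adjusted p = 0.990). The log2 ratio of miR-10a to miR-10b differed between LOS and control by -0.75 (exact two-sided permutation p = 0.0364, adjusted over the 6 group comparisons 0.218). In the other 5 group comparisons of the ratio the adjusted exact permutation p was 0.557 or more.

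Control 9 also had the highest levels of miR-192 and miR-215 among the tongue libraries. It held 6810 CPM of miR-192, an epithelial miRNA abundant in liver and kidney, against 1465 to 2406 CPM in the other 15 tongue libraries, and 1112 CPM of miR-215 against 21.9 to 128 CPM. The 5 listed miRNAs of the kidney and liver epithelium list summed to 7213 CPM in control 9 and to 1759 to 2966 CPM elsewhere. Of the sum in control 9, 6810 CPM was miR-192 itself, so the sum shows no rise of the list as a whole. miR-194, of the same list, was also high in control 9, and ranged from 50.7 to 214 CPM over the tongue libraries (median 67.5). miR-122 was not listed in tongue. The skeletal muscle list was highest in control 9, at 24030 CPM, and next in control 5, at 21860 CPM. Control 5 had 2025 CPM of miR-192, within the range of the other controls, and the lowest miR-205, a squamous epithelium miRNA, at 2085 CPM. Across all tongue libraries miR-192 differed between LOS and control by -0.64 ± 0.25 and miR-194 by -0.62 ± 0.21 (edgeR adjusted p = 0.843 for both). The kidney and liver epithelium list did not go 1 way: 3 of its 5 listed miRNAs were above 0. Its median log2 difference was 0.007, beside 0.010 for all miRNAs. The part of these miRNAs in the miR-10a difference was not tested.

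**Figure D5:**
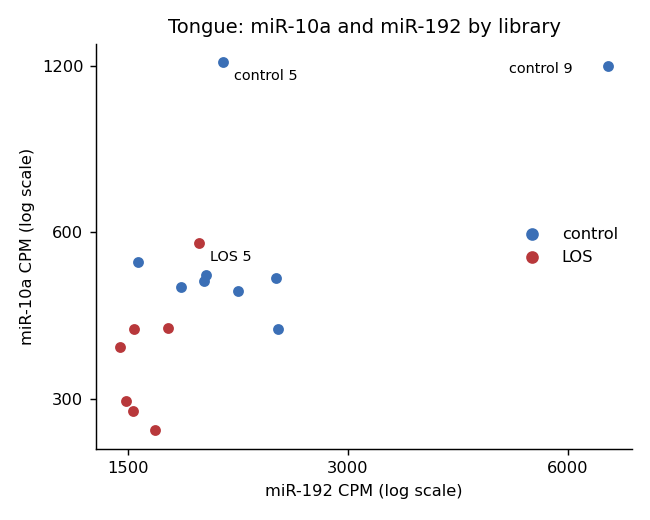
miR-10a against miR-192 in the 16 tongue libraries, both in CPM on log axes, with 1 point per fetus coloured by group. Controls 5 and 9 share miR-10a levels of 1217 and 1201 CPM, at 2025 and 6810 CPM of miR-192, and LOS 5 at 576 CPM is the highest LOS fetus.

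Neither miR-10a nor miR-10b passed a test of whether sex or tissue changed the LOS difference. The other members were not listed in tongue and were not in these fits. In tongue, males minus females differed by 0.09 ± 0.27 for miR-10a and 0.12 ± 0.16 for miR-10b (edgeR adjusted p = 0.911 and 0.797, with 0% of 460 miRNAs called). The sex by LOS interaction was -0.00 ± 0.55 for miR-10a (interval -1.182 to 1.175) and 0.04 ± 0.34 for miR-10b, again with 0% called. These fits had 62 and 20 miRNAs at an unadjusted p under 0.05, and DESeq2 called 0 in both. The tissue by LOS interaction over fetuses 1 to 4 of each group and tissue called 1.07% of 374 miRNAs, and neither member was among them (edgeR adjusted p = 0.376 for miR-10a and 0.979 for miR-10b). Before adjustment the edgeR p of miR-10a was 0.0406, rank 39 of 374.

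The closest sequence relatives of miR-10 outside the HOX clusters, miR-99a, miR-99b and miR-100, were compared between the same tissues. Of their 5 arms listed in every tissue, 4 were higher and 1 lower in kidney than in liver in controls, with a median log2 difference of 1.45 against -0.24 for all miRNAs. The 1 lower arm was miR-100 (-0.32 ± 0.10; edgeR adjusted p = 0.00728), whose adjusted p was 0.153 in the fit of kidney and liver alone and 0.0606 with RLE scaling. For kidney minus muscle 2 were higher and 2 lower, and for kidney minus tongue 2 were higher and 2 lower. The shares of all miRNAs called in these fits were 86.4%, 76.7% and 79.7%. Without scaling factors miR-99b turned in kidney minus tongue from 0.36 to -0.09 and miR-99a-3p from 0.04 to -0.41. miR-100 itself was lower in kidney than in muscle by -0.94 ± 0.10 and than in tongue by -1.98 ± 0.11 (edgeR adjusted p = 3.3e-07 and 3.13e-11). Between LOS and control none of the listed arms was called in any tissue. The median log2 difference was -0.19 in kidney and -0.24 in muscle, beside 0.01 and -0.01 for all miRNAs. It was 0.056 in liver and -0.006 in tongue, beside 0.013 and 0.010 for all miRNAs. miR-100 in kidney differed by -0.68 ± 0.17 (edgeR adjusted p = 0.347).

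Across the 45 libraries, the miRNAs whose log2(CPM + 1) followed a member most closely were taken from the 374 shared ones, as a description. For miR-10a these were miR-30a-3p (Pearson r = 0.952), miR-30a-5p (0.905), miR-30d (0.904), miR-30f-3p (0.882) and miR-30d-3p (0.790). For miR-10b they were miR-542-3p (0.936), miR-503-3p (0.929), miR-335-3p (0.901), miR-181a (0.893) and let-7d-3p (0.888). The 45 points share 4 tissues and 4 tables. With the group means taken out, the closest to miR-10a were miR-194 (r = 0.500), miR-192 (0.484), miR-215 (0.392), miR-378 (0.358) and miR-541 (0.332), where tongue control 9 holds high values of the leading 3. For miR-10b they were miR-199a-5p (0.451), miR-143-5p (0.400), miR-199c (0.393), miR-452 (0.387) and miR-125a-3p (0.380).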

How the data were processed

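Small RNA libraries were made from TRIzol RNA of frozen tissue with the Illumina TruSeq small RNA kit, per the labels' protocols. The deposited tables hold raw read counts per mature miRNA and library, 1 table per tissue. Bowtie and build UMD3.1 are named for all tissues, and cutadapt 1.18 for tongue alone, per the submitters' processing notes. The counting rule for similar miRNAs and any listing filter were not given in the sources used. From the counts, CPM (shares of listed reads, unscaled) and log2 differences (TMM-scaled) were obtained using edgeR 4.0.16 under R 4.3.3 (filterByExpr, quasi-likelihood test, Benjamini-Hochberg over all miRNAs of a fit, threshold 0.05); filterByExpr kept every member. DESeq2 1.42.0 was an alternative; its filtering level was changed from the default 0.1 to the call threshold 0.05 after its counts had been seen, and counts at both levels are given. The 3 liver groups shared 1 fit, tongue had a sex term, and tissues were compared over fetuses 1 to 4. Members not in all 4 tables were compared in fits of 2 tissues, added after the data were seen. Log2 ratios within a library were tested by exact permutation. The script was tested on simulated data. Named miRNAs are the members, miR-615, the miR-99 and miR-100 relatives, markers, and the 5 closest to each shared member. Members and lists were chosen with earlier results of these data known. The labels do not say whether fetuses came from separate litters or sires, so p-values measure the spread between libraries as labelled. No pair of libraries within a group was a duplicate: the smallest chi-square between libraries of a group, divided by its degrees of freedom, was 23.9. No chromosome positions or sequences are given, as no miRNA annotation was used here.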

Additional observations from a re-analysis of the deposited data

Results flagged for a closer look

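In 35 groups of member values of 4 to 9 fetuses, 2 held a fetus far from the others by Dixon's test, and chance flags about 1 in 20 groups. In kidney, miR-196b of control 1 stood at 1022 CPM, with the nearest control at 833 CPM. In liver, miR-10a of control 5 stood at 4288 CPM, with the nearest control at 3376 CPM.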

How the results depend on the processing

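Of 74 member results, 48 kept their direction and side of the threshold under every alternative. Of 1078 alternative values, 973 did so, 33 lost the call, 72 changed sign and 0 gained a call. Most lost calls were tissue differences of the log2 ratio, with a fetus number left out or equal numbers taken as pairs. The smallest possible exact permutation p was 0.1 or 0.125 there, so no call could be kept whatever the values. All tissue pairs of the ratio thus fell outside the 48. Only muscle minus tongue lost its call where a call was possible. For liver ART minus control, miR-10a was -0.0133 without scaling factors and -0.0121 with miR-10a and miR-10b left out of the library sizes, which also gave 0.0077 for miR-10b-3p in muscle. Without tongue controls 5 and 9 (chosen after seeing the data) miR-10b in tongue was -0.0363, and the sex by LOS interaction was 0.0720 for miR-10a and -0.0219 for miR-10b; without scaling factors it was 0.0210 for miR-10a. Liver minus muscle miR-10a without scaling factors was -0.154 in controls and 0.0997 in LOS. The muscle minus tongue log2 ratio of miR-10a to miR-10b was 0.725 with all 22 controls. The cause of these changes was not tested.

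The labels do not say that equal fetus numbers in different tissues are 1 fetus. Over 49 such pairs the correlation of deviations from group means ranged from -0.419 to 0.617 (median 0.162), with 36 over 0.1. Over 27 pairs of equal number from different groups of a tissue the median was 0.0129, with 7 over 0.1. Equal numbers thus correlated more often across tissues but not in every pair, and whether they mark 1 fetus is not settled by these values. With the replicate block no member call changed in edgeR, and liver LOS minus ART miR-10a was -0.0028. In the sign-flip form of the block the log2 ratios between tissues were -3.558, 3.391, 4.383, 6.949, 7.941 and 0.9921 (kidney minus liver, muscle and tongue, liver minus muscle and tongue, muscle minus tongue), each with an exact permutation p of 0.125, the smallest 4 pairs allow. The block gave 0 calls among all miRNAs in liver LOS minus control, 1 in ART minus control and 3 in LOS minus ART.

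Leaving out 1 library at a time gave these ranges. Kidney LOS minus control ranged from -0.0976 to 0.00052 for miR-10a, -0.00369 to 0.0879 for miR-10a-3p and -0.0919 to 0.0205 for miR-10b-3p. Liver LOS minus control ranged from -0.114 to 0.112 for miR-10a and -0.104 to 0.185 for miR-196b. Liver ART minus control ranged from -0.0367 to 0.0845 for miR-10a, -0.229 to 0.536 for miR-10b, -0.270 to 0.00325 for miR-196b and -0.501 to 0.0961 for the log2 ratio. Liver LOS minus ART ranged from -0.108 to 0.0859 for miR-10a. Muscle ranged from -0.182 to 0.0532 for miR-10a, -0.129 to 0.0810 for miR-10b-3p and -0.187 to 0.0796 for miR-196b. Tongue miR-10b ranged from -0.0929 to 0.0962, male minus female miR-10a from -0.153 to 0.305, and the sex by LOS interaction from -0.438 to 0.469 for miR-10a and -0.114 to 0.246 for miR-10b. Kidney minus muscle miR-196a in controls ranged from 0.452 to 0.535, with the call lost without fetus 4. The log2 ratios between tissues ranged from -3.927 to -3.166, 3.268 to 3.543, 4.271 to 4.511, 6.709 to 7.362, 7.514 to 8.197 and 0.8058 to 1.243 in the order above, where 3 against 3 libraries cannot go below an exact permutation p of 0.1.

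Counts over all miRNAs in the group comparisons also differed with DESeq2, which called 3 in kidney, 20, 6 and 27 in liver (LOS minus control, ART minus control, LOS minus ART) and 17 in muscle, or 10 in muscle at its default filtering level. Fits of only the 2 liver groups called 1 in ART minus control and 6 in LOS minus ART, and muscle had 3 with RLE scaling and 3 with a mean CPM of at least 10. Low counts limit miR-196b in liver, at 20 to 50 reads.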
